A study of Mus musculus with 2 samples.

Results

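Antimicrobial peptides and proteins were followed in wounded skin that lacked the vitamin D receptor in keratinocytes. The genes were chosen by symbol from the annotation of the deposited normalized table: Camp, Defb1, Defb3, Defb4, Defb6, Defb8, Defb14, Lcn2, Slpi and Pglyrp1. Of these 10 symbols, 9 had a probe, each of them 1 probe, among 25697 probes and 17871 genes in all. Defb3 was not analysed here. The rule uses symbols only.

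The data are 2 Illumina bead arrays on 1 slide, 1 of Vdr knockout (KO) and 1 of control (CON) wounded back skin. KO mice were VDR fl/fl with a Cre recombinase driven by the keratin 14 promoter, so that Vdr was removed in cells that express this keratin of basal keratinocytes and kept by design in dermal and immune cells. CON mice were littermates labelled VDR fl/fl. All were C57BL6, 3 months old and on a low calcium diet, received 2 full-thickness wounds with a 6 mm punch, and had the wounded skin cut out with an 8 mm punch 3 days later. The skins of 3 mice were pooled for a sample, as the design text of the series states. That text also speaks of 3 per genotype, and 1 array of each is analysed here. Since each genotype has 1 array, there is no replicate error, no test and no p-value: every difference below is log2 intensity, KO minus CON, and describes these 2 arrays. The number of arrays limits the precision. In whole tissue, fewer cells of a type and less RNA per cell cannot be told apart.

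Skin makes antimicrobial peptides in keratinocytes and receives more of them from neutrophils that enter a wound. Beta-defensins are short cationic peptides held by disulfide bonds that damage microbial membranes, and cathelicidin (Camp) is a precursor cut by proteases into an active peptide. In human cells the vitamin D receptor binds an element near CAMP and raises its transcription, and human DEFB4 is also described as vitamin D responsive. The element near human CAMP lies in a primate repeat, and mouse Camp is not known to share this response.

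The sequences before the start sites of 4 members are shown because these members carry the contrast that follows: Defb8 and Defb6 are related genes of 1 cluster that differed unequally, Lcn2 is a classical target of NF-kappaB and C/EBP factors, and Camp is the textbook vitamin D target in humans. They are the 250 bases upstream of the RefSeq gene start in GRCm38.p6, written 5′ to 3′ on the strand of the gene. Capitals mark any match, on either strand, to TATAA (TATA box), GGG and CC with any 5 bases between (NF-kappaB-like), TTCNNNGAA (STAT-like), TTGCNNAA (C/EBP-like), AGNTCA (half-site of nuclear receptors) or AGNTCA followed after any 3 bases by AGNTCA (the spaced repeat bound by the vitamin D receptor).
Defb8, chr8:19447607-19447856, minus strand: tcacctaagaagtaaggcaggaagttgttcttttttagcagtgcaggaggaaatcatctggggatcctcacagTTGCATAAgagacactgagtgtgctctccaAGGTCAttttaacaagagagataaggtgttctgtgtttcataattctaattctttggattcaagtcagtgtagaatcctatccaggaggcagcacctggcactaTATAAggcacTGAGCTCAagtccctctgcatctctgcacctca
Defb6, chr8:19225228-19225477, plus strand: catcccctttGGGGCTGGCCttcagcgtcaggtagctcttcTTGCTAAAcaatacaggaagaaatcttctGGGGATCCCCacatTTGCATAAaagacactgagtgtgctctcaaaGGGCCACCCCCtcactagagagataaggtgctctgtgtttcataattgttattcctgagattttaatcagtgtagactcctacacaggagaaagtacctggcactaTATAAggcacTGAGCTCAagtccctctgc
Lcn2, chr2:32387740-32387989, minus strand: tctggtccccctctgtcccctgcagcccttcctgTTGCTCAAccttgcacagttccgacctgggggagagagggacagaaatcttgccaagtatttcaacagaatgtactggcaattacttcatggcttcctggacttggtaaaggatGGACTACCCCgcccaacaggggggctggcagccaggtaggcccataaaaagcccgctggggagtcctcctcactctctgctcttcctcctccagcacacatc
Camp, chr9:109849457-109849706, minus strand: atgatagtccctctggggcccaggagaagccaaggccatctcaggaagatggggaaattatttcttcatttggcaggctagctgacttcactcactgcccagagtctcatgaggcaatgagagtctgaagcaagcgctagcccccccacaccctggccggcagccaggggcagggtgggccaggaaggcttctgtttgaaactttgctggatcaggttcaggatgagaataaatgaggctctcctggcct

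The Defb8 and Defb6 windows were alike, with 77.6% of 250 bases identical in a gapped alignment, against 56.4% to 60.4% for the other pairs of these 4 windows. Both held TATAA, the C/EBP-like letters ttgcataa and a pair of overlapping half-sites at tgagctca. The NF-kappaB-like letters occurred in the Defb6 window, in overlapping matches among them, and not in that of Defb8, where the letters aggtca stand at -147 to -142 from the gene start. The Lcn2 window held 1 C/EBP-like match at -216 to -209 and 1 NF-kappaB-like match at -102 to -93. The Camp window matched none of the 6 motifs. Among 32851 promoter windows of this length, 22.8% held TATAA, 45.8% the NF-kappaB-like, 7.02% the STAT-like and 9.56% the C/EBP-like letters, 41.3% a half-site and 0.0517% the spaced repeat. Matches of this kind are frequent and describe letters only. Overlaps between motifs were counted for each. Of the 10 symbols, 7 had an entry in the RefSeq promoter table.

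Defb8 showed by far the greatest difference among the members. This beta-defensin gene, also named Defr1, is known from C57BL6 mice in an allelic form that lacks a conserved cysteine. Its normalized intensity was 489 in KO skin and 147 in CON skin. The detection floor, below which a probe cannot be told from background, was 176.8 on the KO array and 172.3 on the CON array, so Defb8 was detected in KO skin only. The measured difference was 1.74, and against the CON floor the gene was at least 2.84-fold higher in KO skin. Of 8931 genes detected on both arrays, 4 had a greater difference upwards. Among the 262 genes detected on the KO array only, 1 (0.382%) had a bound of at least 2-fold, and that gene was Defb8. Genes enter that set by the same 2 values that give the bound, so its count describes Defb8 and is no separate evidence. Of the 500 genes nearest in mean intensity, taken with no detection filter, the highest difference upwards was 1.001. At this mean, a CON signal at background caps the difference close to that of Defb8. That 0 of them exceeded Defb8 was thus nearly fixed in advance. The raw table gave 478 in KO skin and 153 in CON skin before any normalization between arrays. Because the CON value lies at background, subtracting the background gives no measured ratio for this gene, and the bound is the value to read. Only 1 probe represents the gene, and whether it also binds transcripts of related defensins was not tested.

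**Figure D1:**
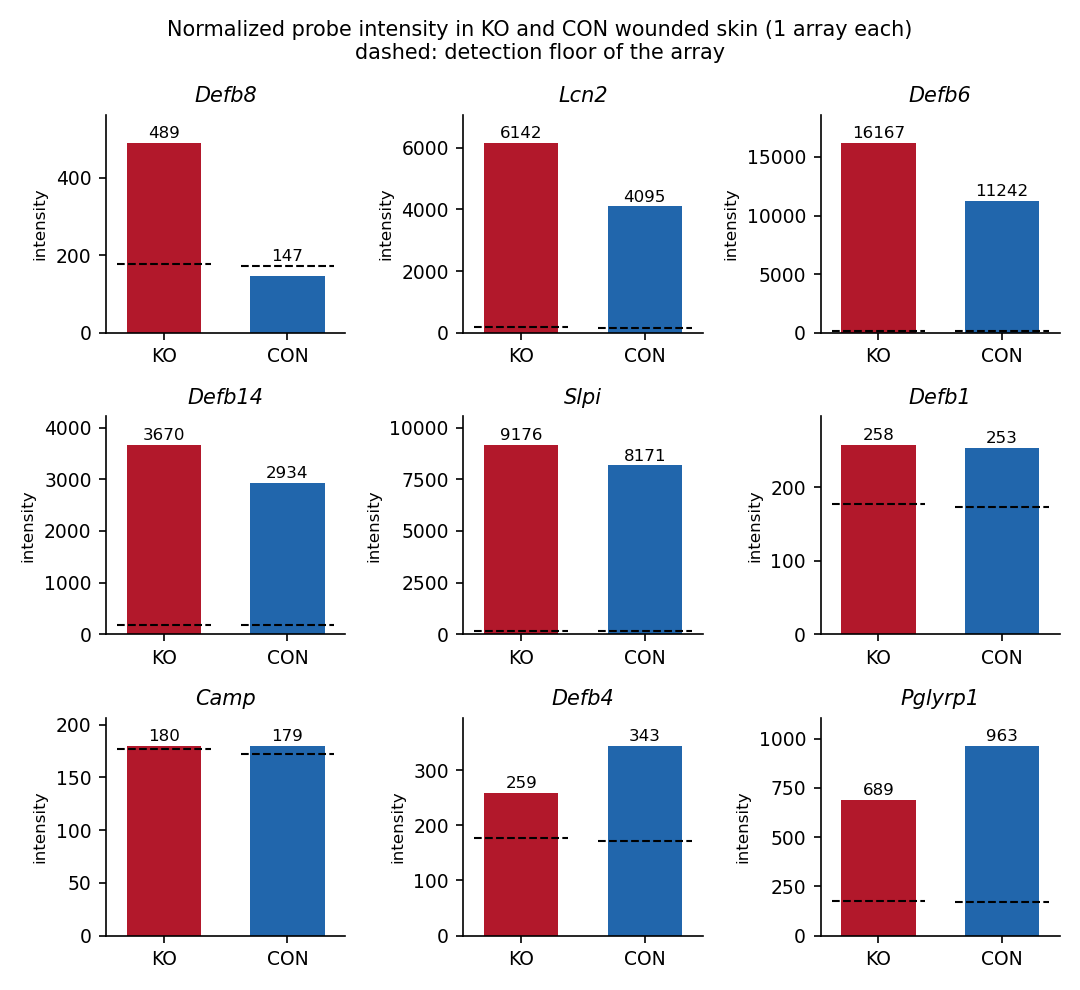
Normalized intensity (linear, from 0) of the 9 antimicrobial genes, 1 bar per array, with KO skin on the left and CON skin on the right of each panel, ordered by difference; dashed lines are the detection floors of 176.8 (KO) and 172.3 (CON). Defb8 clears the floor in KO skin only, Camp stands at the floor on both arrays, and Defb4 and Pglyrp1 are the 2 genes with the lower bar in KO skin.

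Among the other 4 beta-defensins with a probe, 3 differed in the direction of Defb8, by less, and 1 in the other direction. Defb6, a beta-defensin first described in skeletal muscle, had an intensity of 16167 in KO skin and 11242 in CON skin, a difference of 0.52 or 1.44-fold higher. Defb14, the mouse counterpart of human beta-defensin 3 and inducible in keratinocytes, was at 3670 in KO skin and 2934.5 in CON skin, 1.25-fold higher. Both were bright on each array, and both differences kept their sign under all 10 settings tried, at 0.50 to 0.53 for Defb6 and 0.24 to 0.34 for Defb14. Some of these settings change only detection, probe averaging or the copy of the same values, and cannot move a gene with 1 probe. Defb4, an inducible epithelial beta-defensin, lay in the opposite direction, at 258.9 in KO skin and 343.4 in CON skin, 1.33-fold lower, a value that lies close to background on both arrays. Subtracting the background moved the Defb4 difference of -0.41 to as low as -0.79, past 1.5-fold. Defb1, the constitutive beta-defensin of epithelia, was at 257.6 in KO skin and 252.9 in CON skin, a difference of 0.03 that turned negative in 1 of the 10 settings.

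In the RefSeq order of protein-coding genes on chromosome 8, Defb14, Defb4, Defb6, Defb46, Defb5, Defb3, Defb8 and Defb7 follow one another. Defb14 and Defb6, at 0.32 and 0.52, thus flank Defb4, at -0.41. Defb46 was at 166.7 in KO skin and 166.5 in CON skin and Defb5 at 148.2 in KO skin and 137.3 in CON skin, both below the floors. Defb7, which follows Defb8, was at 141.9 in KO skin and 154.3 in CON skin. Among the detected genes of this stretch, Defb14, Defb6 and Defb8 were thus higher in KO skin, and Defb4, close to background, was lower. Defb46, Defb5 and Defb7 did not rise above the KO floor as Defb8 did. Below the floors, a difference in them could not be seen. Of 37 other beta-defensin genes with a probe, 0 were above the floor on either array, the brightest at 167.2 in KO skin and 166.5 in CON skin. The same held for all 7 alpha-defensin genes measured, peptides of the intestinal Paneth cell in mice.

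Of the members that neutrophils carry, 1 was higher, 1 lower and 1 at the floor. Lcn2, the lipocalin that withholds iron from bacteria by binding siderophores, is stored in neutrophil granules and induced in keratinocytes. It was at 6142 in KO skin and 4095 in CON skin, with a difference of 0.58. At 1.4998-fold higher it fell just short of the 1.5-fold line, and 317 of 8931 genes detected on both arrays had a greater difference upwards. Pglyrp1, a peptidoglycan-binding protein of neutrophil granules, was at 689 in KO skin and 963 in CON skin, 1.40-fold lower, with a difference of -0.48. For Pglyrp1, 307 genes differed more in the downward direction. For each of the pair, the central 95% of the 500 genes of like brightness reached further, from -0.57 to 0.60 around Lcn2 and from -0.69 to 0.70 around Pglyrp1. Camp, whose product is cut into the peptide CRAMP, was at 179.6 in KO skin and 179.4 in CON skin, at 1.02 times the floor in KO skin and 1.04 times the floor in CON skin. Probes of odorant and pheromone receptors were nearly all below the floor on each array. Their median was 142.8 on the KO array and 142.5 on the CON array. Most of the Camp signal is thus background, and a difference in the Camp transcript was not detectable.

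Markers of neutrophils stand beside these values. Of 15 listed neutrophil genes, 14 had a probe and 11 were detected on both arrays, 8 of them higher and 3 lower, with a median of 0.16. Over all 8931 genes detected on both arrays, 4810 were higher and 4111 lower, with a median of 0.02. Summed over the 14 neutrophil genes with a probe, the intensity was 59370 in KO skin and 57237 in CON skin. Without S100a8 and S100a9 it was 19284 in KO skin and 17141 in CON skin. The calcium-binding antimicrobial proteins S100a8 and S100a9, abundant neutrophil products that activated keratinocytes also make, were at 28157 and 11928 in KO skin and at 27568 and 12528 in CON skin. The gelatinase Mmp9, at 2891 in KO skin and 1695 in CON skin, and the receptor Trem1, at 883 in KO skin and 584 in CON skin, were the list members past 1.5-fold. The other Trem1 probe differed by 0.19, and with the mean of both probes the gene was at 0.40, short of 1.5-fold. In the other direction the resistin-like gene Retnlg was at 2751 in KO skin and 3492 in CON skin. Mmp8 and Fpr1, further neutrophil markers, were below the floor on both arrays. Granule genes that neutrophils transcribe while they mature in the marrow were near background: of 9 with a probe, 2 were detected on both arrays, and the list reached at most 197.6 in KO skin and 216.3 in CON skin. Among these, lactoferrin (Ltf) was at 186.2 in KO skin and 216.3 in CON skin, and Ngp was below the floor on both arrays. Camp and Ngp are made at the same stage of neutrophil maturation. The part of neutrophil number in the Lcn2 and Pglyrp1 values was not tested.

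Slpi, an inhibitor of neutrophil elastase that also kills bacteria and is made by keratinocytes at the wound edge, was close between the arrays. It was at 9176 in KO skin and 8171 in CON skin, 1.12-fold higher. In the raw table, where the KO array had the lower median signal, the order was turned, at 8840 in KO skin and 9019 in CON skin. After each scaling tried the difference was upward, from 0.09 to 0.17, and 24.2% of genes detected on both arrays differed more in that direction.

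**Figure D2:**
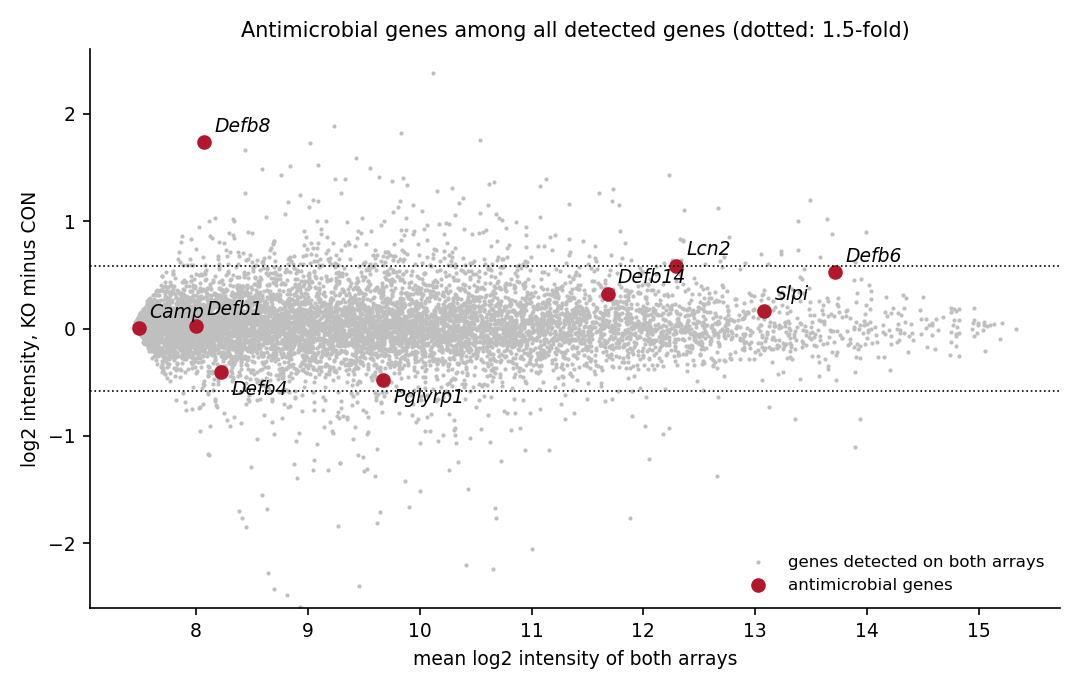
Log2 difference in intensity, KO minus CON, against the mean log2 intensity of both arrays; grey points are the genes detected on both arrays and red points the 9 antimicrobial genes, Defb8 being detected in KO skin only. Dotted lines mark 1.5-fold, and 24 grey points lie beyond the plotted range of 2.6 in either direction. Defb8 lies at 1.74, Lcn2 at 0.58 touches the upper line, and Pglyrp1 at -0.48 and Defb4 at -0.41 lie inside the lower one.

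Of the 9 members, 8 were detected on both arrays, and 6 of these were higher and 2 lower, with a median of 0.10. Over all 8931 genes detected on both arrays the median was 0.02, with 4810 higher and 4111 lower. Of the 8 members, 0 were at least 1.5-fold higher, against 3.55% of all genes, and 0 at least 1.5-fold lower, against 2.51% of all genes. At 2-fold the counts were 0 and 0, against 0.739% higher and 0.896% lower among all genes. Counts of 0 among 8 genes cannot be told from shares this small. Between detected probes of 1 gene the difference varied with an SD of 0.14, pooled over 2131 genes. That SD reflects the probes, not the mice, and Camp and Defb1 differed by less than it.

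**Figure D3:**
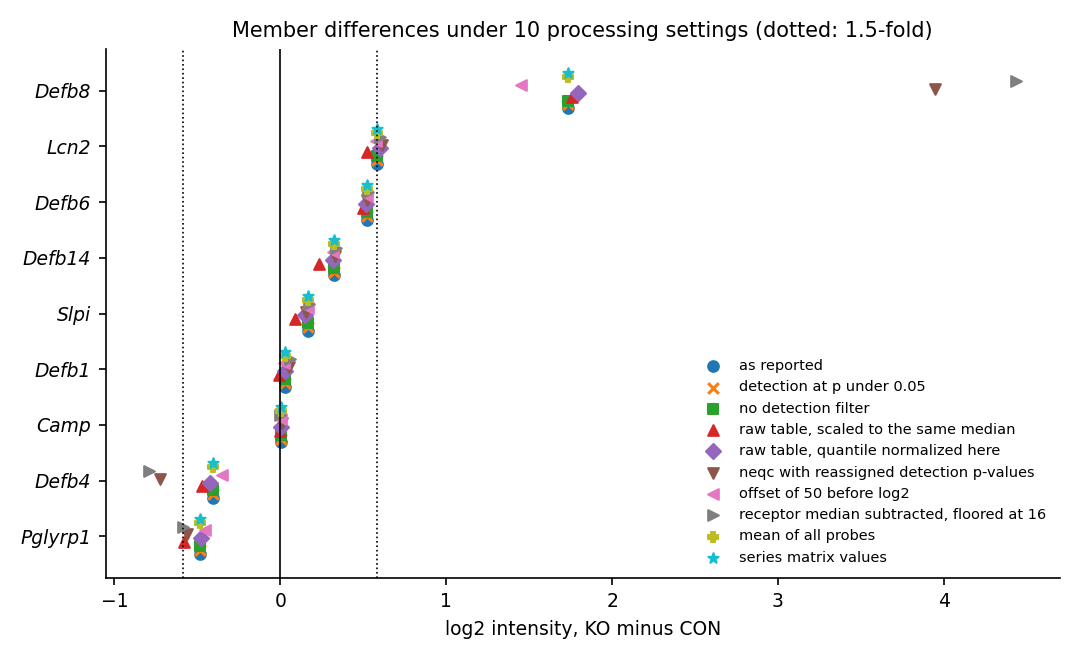
Log2 difference, KO minus CON, of the 9 antimicrobial genes under 10 processing settings, 1 symbol per setting, with dotted lines at 1.5-fold. Defb8 spans 1.45 to 4.44, where the highest value is set by the floor of 16 that replaces its CON signal after subtraction, and Defb4 spans -0.79 to -0.35, while the other genes stay within a narrow range and Lcn2 straddles the 1.5-fold line at 0.52 to 0.62.

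Other antimicrobial proteins of skin included larger differences than the members other than Defb8. Of 28 listed genes, 25 had a probe and 16 were detected on both arrays, 9 higher and 7 lower, with a median of 0.05. Wfdc12, which shares the whey acidic protein fold with Slpi, was at 9329 in KO skin and 5183 in CON skin, 1.80-fold higher. Pglyrp4, a peptidoglycan-binding protein of epithelia, was at 489 in KO skin and 310 in CON skin, 1.57-fold higher, and its other probes differed by 0.54 and 0.12 in the same direction. Thus the peptidoglycan-binding genes Pglyrp4 and Pglyrp1 lay in opposite directions, while Pglyrp3 was below the floor on both arrays.

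S100a7a, the mouse relative of human psoriasin, was at 239.6 in KO skin and 1643 in CON skin, 6.86-fold lower, and was the largest difference of the list, measured by 1 probe. It kept this direction under all 10 settings, from 5.84-fold to 15.5-fold lower. Chil3, a chitinase-like protein of macrophages, was at 636 in KO skin and 1022 in CON skin, 1.61-fold lower, and its 2 dimmer probes differed by -0.55 and -0.57. The lysozyme Lyz2 of macrophages and neutrophils was at 18923 in KO skin and 14833 in CON skin, a difference of 0.35. Markers of macrophages and monocytes stand beside the last pair: of the list without Lyz2, 6 genes were detected on both arrays, 5 higher and 1 lower, with a median of 0.32. The summed intensity of its 7 genes with a probe was 15045 in KO skin and 12353 in CON skin. Of those detected on both arrays, Ms4a7 was the highest, 1.70-fold higher in KO skin by its brighter probe, and Cd163 the lowest, at -0.27. The other Ms4a7 probe was below the floor on both arrays. The part of macrophages and monocytes in the Chil3 and Lyz2 values was not tested.

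Genes listed around the induction of antimicrobial peptides in keratinocytes, antagonists among them, were more often higher than lower in KO skin where detected. Of 25 listed cytokines, receptors and EGF receptor ligands, 21 had a probe and 12 were detected on both arrays, 9 of them higher and 3 lower. Over all 8931 genes detected on both arrays, 4810 were higher and 4111 lower. The median of the 12 was 0.23, against 0.02 over all genes. Of the 12, 0 passed 1.5-fold, where 3.55% of all genes were higher and 2.51% lower by that much. With no detection filter, which adds genes at background, the list median was 0.012. The antagonist Il1rn, at 0.02, is counted among the higher genes. The transcripts of Il17a, Il17f and Il22, the T cell cytokines best known for inducing Lcn2 and beta-defensins in skin, were below the floor on both arrays. Oncostatin M (Osm) was at 1624 in KO skin and 1131 in CON skin, a difference of 0.52, and Egfr was at 2086 in KO skin and 2988 in CON skin, a difference of -0.52 that its 3 dimmer probes did not share in size, at 0.00, -0.06 and -0.15. Microbial sensors and the transcription factors below them were higher in 13 of 16 genes detected on both arrays and lower in 3. Their median was 0.18, and 0 passed 1.5-fold. For lists of 12 and 16 genes, counts of 0 cannot be told from the shares over all genes. The peptidoglycan sensor Nod1 was at 1479 in KO skin and 1079 in CON skin, and the oxygen-regulated factor Hif1a at 375 in KO skin and 489 in CON skin.

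Genes listed around cathelicidin processing, most of them proteases, included both directions. Of 9 listed genes, 8 had a probe and 5 were detected on both arrays, 2 higher and 3 lower, with a median of -0.04. Klk5 and Klk7, the kallikreins that cut cathelicidin in human skin, were at 2114 and 7947 in KO skin and at 1946 and 8748 in CON skin. Klk8, a further epidermal kallikrein, was at 8171 in KO skin and 5284 in CON skin, 1.55-fold higher. St14, the membrane protease matriptase, was at 427 in KO skin and 836 in CON skin, 1.96-fold lower, with its second probe at 261 in KO skin and 426 in CON skin.

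The vitamin D genes were set beside the members because Vdr is the targeted gene. Vdr itself was at 2076 in KO skin and 2596 in CON skin by its brightest probe, a difference of -0.32, and at 1430 in KO skin and 1674 in CON skin by the next. The remaining probe, near the floor, was at 216.6 in KO skin and 211.5 in CON skin. The files do not say if the probes fall within the removed exons, so they check the labels only weakly. Cyp27b1, the enzyme that makes active vitamin D, was below the floor on both arrays, at 151.0 in KO skin and 157.7 in CON skin. Of 10 vitamin D genes 6 were detected on both arrays, 5 higher and 1 lower and 0 past 1.5-fold. Cyp27a1, a 25-hydroxylase, was the highest of them at 0.50. Cyp24a1, the enzyme that inactivates vitamin D and a classical target of the receptor, was above the floor in CON skin only, at 151.9 in KO skin and 191.3 in CON skin. Against the KO floor it was at least 1.08-fold lower in KO skin, a small bound near background. Of 17871 genes, 545 were above the floor in CON skin only.

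Markers of the skin compartments differed between the 2 samples. Of 8 hair follicle genes, 5 were detected on both arrays and all 5 were lower in KO skin, with a median of -5.48 and a summed intensity over the list of 2663 in KO skin and 96960 in CON skin. Of 11 sebaceous gland genes, 9 were detected on both arrays, all higher, and 7 of these passed 1.5-fold. Their median was 0.72, with a summed intensity of 73271 in KO skin and 41087 in CON skin. The median was 0.04 for 7 basal and 0.16 for 6 wound keratinocyte genes. It was 0.30 for 5 genes of differentiated keratinocytes, with summed intensities of 77788 in KO skin and 63141 in CON skin. Sprr2f of the wound list was 1.81-fold higher in KO skin, and Casp14 of the differentiated list 1.66-fold higher. Ivl was the lowest detected gene of the differentiated list, at -0.49. The skeletal muscle list, set beside Defb6, had a median of 0.18 over 6 genes, with Myh2 the highest at 0.49 and Myh4 the lowest at -0.19, and summed intensities of 47459 in KO skin and 42225 in CON skin. The part of these compartments in the differences of Defb8, Defb6, Lcn2, Wfdc12, Klk8, St14 and S100a7a was not tested.

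**Figure D4:**
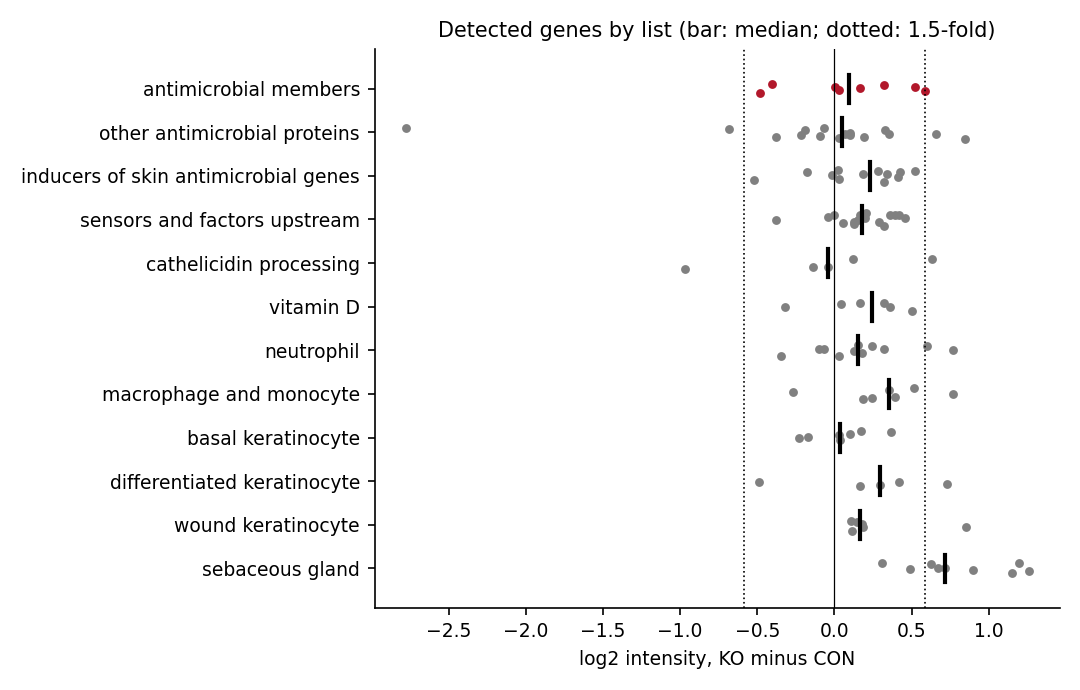
Log2 difference, KO minus CON, of the genes detected on both arrays, 1 point per gene and 1 row per gene list, with the median as a black bar and 1.5-fold as dotted lines; the hair follicle list, at a median of -5.48, lies outside the range and is not drawn. The antimicrobial members (red) centre on 0.10, while the sebaceous gland genes centre on 0.72 and S100a7a stands alone at -2.78.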

How the data were processed

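Total RNA of wounded skin was hybridised to single-colour Illumina bead arrays, per the labels' protocols. The submitters' processing notes name GenomeStudio 2011.1. How background and normalization were handled is not given in the sources. The same intensities recur in both normalized columns, such as 8171.0 for Klk8 in KO skin and for Slpi in CON skin. Quantile normalization leaves such a pattern. The deposited tables hold linear intensity per probe, raw or normalized by the authors between arrays, with detection p-values deposited beside the signal. The normalized table and the series matrix differed at 0 probes, so its values are linear and not centred, with a median of 169.9 in both columns. The deposited detection p-values do not follow the signals (rank correlations 0.008 for KO and 0.009 for CON) and were used as a set: as many of the brightest probes were counted as detected as there were p-values under 0.01, 12161 for KO and 12588 for CON.

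Of 1302 olfactory and vomeronasal receptor probes, 0.461% lay above the KO floor and 0.538% above the CON floor. Median raw signal was 165.8 for KO and 180.0 for CON. For each probe log2 was taken of the deposited normalized intensity, without an offset, the brightest probe standing for a gene. Background remains in them, so differences of dim genes are understated. A gene detected on 1 array has a bound against the other array's floor. The 27 genes whose probes disagreed on detection were left out of counts over all genes. Gene names of 25376 probes were updated from a RefSeq table (GRCm38.p6). limma 3.58.1 (neqc, R 4.3.3) served as an alternative with p-values reassigned by rank. Members, lists and the rule for naming genes (all members, 9 fixed genes, and for each list the highest, the lowest and any past 1.5-fold) were chosen with earlier results of these data known, and the motifs after the sequences were seen. Some genes that this rule picks are given only within counts and medians, and some others are named. Promoter windows were aligned with Biopython 1.88.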

Additional observations from a re-analysis of the deposited data

How the results depend on the processing

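No paired analysis was possible because each genotype had 1 array, and for the same reason no array could be left out. The values were recomputed under 9 alternatives. Defb8 was the 1 member with a difference of at least 1.5-fold as first computed, and it kept its sign. A difference was counted as moved when it shifted by over the probe SD of 0.14. Settings that change only detection, probe averaging or the copy of the same normalized values cannot move the difference of a gene with 1 probe. That holds for every member and for S100a7a, so the 10 settings overstate how often a sign could have changed. Quantile normalization here stayed close to the deposited values, which already bear its pattern, and is not an independent alternative. Defb8 moved to 3.95 with neqc, to 1.45 with an offset of 50 and to 4.44 with the receptor median subtracted, where the last is set by the floor of 16 that replaced its CON signal. Defb4 moved to -0.72 with neqc and to -0.79 with the receptor median subtracted. The count of members detected on both arrays and at least 1.5-fold higher was 1 with no detection filter (Defb8), and 1 each with quantile normalization here, with neqc and with the receptor median subtracted (Lcn2). At least 2-fold higher it was 1 with no detection filter. At least 1.5-fold lower it was 1 with neqc (Defb4) and 2 with the receptor median subtracted (Defb4 and Pglyrp1). Camp, at 0.00, turned negative in 2 of the 10 settings, and Defb1 in 1 of them, to -0.01 at the lowest. Over all genes, neqc gave 660 at least 1.5-fold higher and 421 lower, against 317 and 224, and the receptor subtraction 816 and 515. Scaling the raw table to the same median gave 197 and 284, which turns the split. Dim signal limits Camp, Defb1, Defb4 and the CON value of Defb8.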
